A study of Gallus gallus with 45 samples.

Results

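The comparison is between 7ss to 9ss chick embryos (7 to 9 somites, stage HH9 of Hamburger and Hamilton) and 4ss to 6ss embryos (4 to 6 somites, HH8), the period in which neural folds at the midbrain level close into a tube and neural crest cells begin to leave its dorsal side. The members were chosen by stage label alone: 22 of the 45 bulk RNA libraries of the series, which covers 12 stages from HH5 to 10ss and was made to follow pluripotency genes and crest formation in the ectoderm. HH9 has 11 libraries (4 of 7ss, 3 of 8ss and 4 of 9ss) and HH8 has 11 libraries (4 of 4ss, 4 of 5ss and 3 of 6ss). All embryos were wild type and untreated, and each library came from tissue pooled over several embryos, so each value mixes every cell type that the pieces held. From 8ss on, the labels name newly emigrated crest together with dorsal neural tube, whereas 7ss carries the same tissue label as 4ss to 6ss. Dissection and stage thus cannot be told apart at the step from 7ss to 8ss. The same holds in HH9 against HH8 for what its 8ss and 9ss libraries contribute, and the stages of HH9 are also given separately. In bulk tissue, fewer cells of a type and less RNA per cell cannot be told apart.

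Neural crest cells arise at the border of the neural plate, where border factors of the Pax and Msx families come on first and crest specifiers such as FoxD3, Snai2, Ets1 and Sox10 follow. The cells then undergo an epithelial to mesenchymal transition (EMT), in which Snail and Zeb repressors act on cadherins, and they migrate along matrix, guided by receptors such as CXCR4. Wnt, BMP and FGF signals act on the border and on the dorsal midline, and the midbrain with its boundary to the hindbrain is marked by Engrailed and Pax genes and by Fgf8. Midbrain crest later gives cartilage, bone, glia, neurons and pigment cells.

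Counts were deposited as reads per gene, and values are given as CPM (counts scaled to a common library size) after scaling with the trimmed mean of M-values. Library totals were 17.5 to 25.7 M reads in HH9 (median 21.9 M) and 15.4 to 25.8 M in HH8 (median 19.4 M). CPM is not corrected for gene length, so levels are compared between samples of a gene and not between genes. In a principal component analysis of the 22 libraries over the 500 most variable genes, the first component held 34.9% of the variance and put the stages in their order. All 11 HH9 libraries lay at 4.15 or above, against 0.59 or below for all 11 HH8 libraries. The 4ss libraries lay between -28.3 and -23.1, and 5ss replicate 4, at -25.7, lay among them and apart from the other 5ss libraries (-14.8 to -11.0). Its label was kept. Of the listed or named genes, LHX9, COL6A1, LEF1, NKD1, DUSP6, KRT14 and E2F1 were called between HH9 and HH8 but not when it was left out. Likewise 8ss replicate 3, at 21.2, lay beside the 9ss libraries (21.3 to 22.9) and apart from the other 8ss libraries (15.9 and 15.1). The label of 8ss replicate 3 was kept as well.

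**Figure D1:**
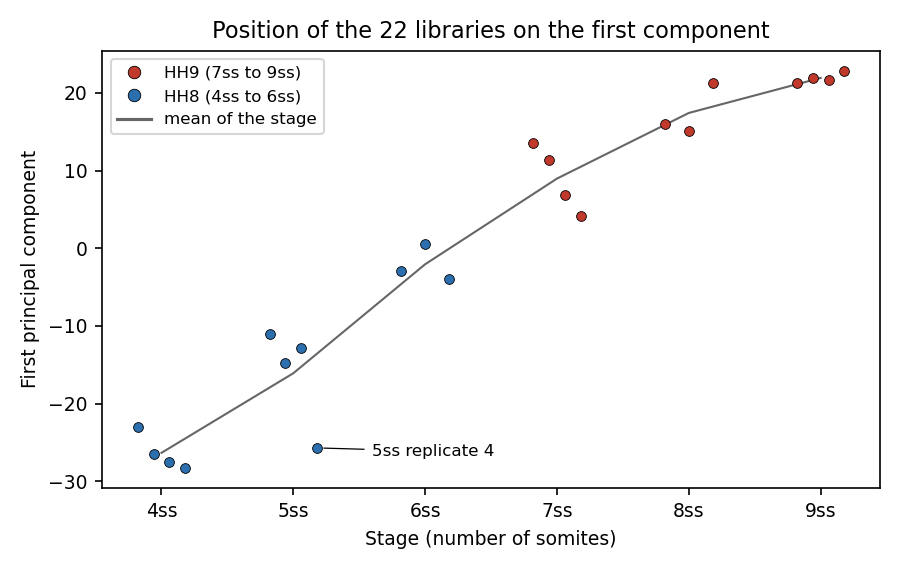
Position of each of the 22 libraries on the first principal component (arbitrary units, 34.9% of the variance) by stage, with the mean of each stage as a line. The HH9 libraries all lie at 4.15 or above and the HH8 libraries at 0.59 or below, and 5ss replicate 4 lies at -25.7, among the 4ss libraries.

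Of 18525 genes tested, 1309 (7.07%) were called between HH9 and HH8, that is, with a log2 fold change beyond 0.75 in either direction and an adjusted p under 0.05 in edgeR's quasi-likelihood test. Of these, 648 (3.5%) were higher in HH9 and 661 (3.57%) lower. The median log2 fold change over all genes tested was -0.01. Without 5ss replicate 4 the call fell on 1219 genes, of which 1155 were among the 1309. Of the 146 called genes that are named below or are on its lists, 116 kept the call in each of 22 fits that left out 1 library. Over all genes tested, the groups did not overlap in CPM for 77 genes (0.416%), with HH9 above HH8 in 54 (0.291%) and below it in 23 (0.124%). This held for 61 of the called genes (0.329% of all genes tested), 39 higher and 22 lower. All HH9 libraries thus stood apart from all HH8 libraries in 4.66% of the called genes. When the mean CPM of each called gene was followed from stage to stage, the largest step in its direction lay between 6ss and 7ss for 480 genes (36.7%), between 5ss and 6ss for 368 (28.1%) and between 7ss and 8ss for 187 (14.3%). Among genes that fell, the step from 5ss to 6ss was the largest for 244 and the step from 6ss to 7ss for 228, while among genes that rose the step from 6ss to 7ss was the largest for 252 and that from 5ss to 6ss for 124. The comparison that chose these genes counts the step from 6ss to 7ss in full and the other steps in part. The choice itself thus favors that step, and largest steps were not counted for genes without a call.

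Among well-expressed genes whose groups did not overlap, those with the largest rise in HH9 included chains of a cartilage collagen, a midbrain and hindbrain boundary factor and a Meis homeobox factor. COL9A3, a chain of the cartilage-associated type IX collagen, had 12.1 to 35.9 CPM in HH9 libraries (median 17.7), against 0.405 to 6.84 CPM in HH8 libraries (median 1.59) (log2 fold change 2.98, SE 0.30, edgeR adjusted p = 9.29e-10). COL9A1, a partner chain of the same collagen, had 27.6 to 71.0 CPM in HH9 libraries (median 52.6), against 6.58 to 22.4 CPM in HH8 libraries (median 11.1) (log2 fold change 1.98, SE 0.21, edgeR adjusted p = 4.2e-09). For both chains the lowest HH9 library stood above the highest HH8 library, and 4ss and 5ss held the lowest values. PAX2, a paired-box factor of the midbrain and hindbrain boundary, had 67.1 to 153 CPM in HH9 libraries (median 94.6), against 2.81 to 64.4 CPM in HH8 libraries (median 21.4) (log2 fold change 1.86, SE 0.33, edgeR adjusted p = 7.39e-05). MEIS1, a homeodomain cofactor of Hox and Pbx proteins, had 430.2 to 846 CPM in HH9 libraries (median 604), against 126 to 347 CPM in HH8 libraries (median 219) (log2 fold change 1.41, SE 0.25, edgeR adjusted p = 6.1e-05). The 11 HH9 libraries of each of these genes lay above all 11 HH8 libraries, with 6ss the closest of the HH8 stages for PAX2.

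The other genes of this group rose by a log2 fold change between 1.27 and 2.04. CRYAB, a small heat shock protein and lens crystallin, had 8.36 to 25.5 CPM in HH9 libraries (median 16.3), against 0.637 to 7.59 CPM in HH8 libraries (median 3.88) (log2 fold change 2.04, edgeR adjusted p = 3.09e-06). TNFRSF19, a TNF receptor family member, had 77.2 to 156 CPM in HH9 libraries (median 140.3), against 8.54 to 72.1 CPM in HH8 libraries (median 29.0) (log2 fold change 1.75, edgeR adjusted p = 2.24e-06). SCIN, an actin-severing protein, had 35.7 to 95.6 CPM in HH9 libraries (median 48.1), against 6.09 to 33.2 CPM in HH8 libraries (median 15.2) (log2 fold change 1.62, edgeR adjusted p = 7.01e-06). In all 3 the values climbed through the HH8 stages before the step to 7ss, and 5ss replicate 4 lay near the 4ss libraries in TNFRSF19 and SCIN. UQCRFS1, the iron-sulfur subunit of respiratory complex III, had 116 to 267 CPM in HH9 libraries (median 168), against 16.3 to 115 CPM in HH8 libraries (median 49.1) (log2 fold change 1.73, edgeR adjusted p = 0.000125), and here 4ss replicate 1 nearly reached the lowest HH9 library. CSNK1G2, a casein kinase, had a median of 20.3 CPM in HH9 and 5.93 CPM in HH8 (log2 fold change 1.91). TRABD2A (1.93), C1orf21 (1.87) and CLEC19A (1.27) complete the 12, all with edgeR adjusted p values of at most 1.34e-06. The calls of these 12 genes held in each fit that left out 1 library, which their choice as called genes without overlap made likely. Of the 34 alternatives given at the end, MEIS1 and CLEC19A each lost the call in 1, CLEC19A at 7ss alone (log2 fold change 0.70).

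The largest falls among non-overlapping genes included a retinoic acid enzyme and antagonists of secreted signals. CYP26A1, an enzyme that degrades retinoic acid, had 2.55 to 34.2 CPM in HH9 libraries (median 7.57), against 51.2 to 322 CPM in HH8 libraries (median 117) (log2 fold change -3.67, SE 0.37, edgeR adjusted p = 6.97e-10). It declined over all 6 stages, from a mean of 249 CPM at 4ss through 61.2 at 6ss and 22.5 at 7ss to 4.53 at 9ss. SHISA2, of a family that in frog holds back the maturation of Wnt and FGF receptors, had 7.15 to 26.3 CPM in HH9 libraries (median 17.1), against 43.0 to 239 CPM in HH8 libraries (median 117) (log2 fold change -2.93, SE 0.25, edgeR adjusted p = 1.19e-11). FST (follistatin), a secreted antagonist of activin and BMP, had 16.0 to 113 CPM in HH9 libraries (median 45.7), against 136 to 574 CPM in HH8 libraries (median 323) (log2 fold change -2.60, SE 0.25, edgeR adjusted p = 2.19e-10). In each of the 3 genes the highest HH9 value was in a 7ss library and the lowest HH8 value in a 6ss library, so the groups met at their border stages without overlapping. WNT2, a Wnt ligand, had 0.606 to 3.45 CPM in HH9 libraries (median 0.885), against 3.73 to 18.1 CPM in HH8 libraries (median 7.1) (log2 fold change -2.67, edgeR adjusted p = 1.02e-08). NOXO1, an organizer of NADPH oxidase, had 1.22 to 14.3 CPM in HH9 libraries (median 5.09), against 15.1 to 56.1 CPM in HH8 libraries (median 21.2) (log2 fold change -2.20, edgeR adjusted p = 1.18e-07). FGFR2, an FGF receptor, had 12.8 to 32.6 CPM in HH9 libraries (median 18.9), against 43.3 to 85.4 CPM in HH8 libraries (median 64.6) (log2 fold change -1.66, edgeR adjusted p = 9.1e-11). Its 11 HH9 libraries all lay below the lowest HH8 library, as they did for WNT2 and NOXO1.

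ALX1, a homeobox factor of cranial mesenchyme, had 2.9 to 9.4 CPM in HH9 libraries (median 5.12), against 10.2 to 50.9 CPM in HH8 libraries (median 28.8) (log2 fold change -2.22, SE 0.24, edgeR adjusted p = 6.68e-09). SALL4, a zinc finger factor of pluripotent cells, had 49.1 to 73.1 CPM in HH9 libraries (median 62.1), against 87.0 to 205 CPM in HH8 libraries (median 145) (log2 fold change -1.27, SE 0.11, edgeR adjusted p = 1.19e-11). The 7ss values of SALL4 were within a narrow range (73.1, 67.6, 71.9 and 72.6 CPM) below every HH8 library. CLDN1, a tight junction claudin, had 412 to 1052 CPM in HH9 libraries (median 758), against 1123 to 2395 CPM in HH8 libraries (median 1692) (log2 fold change -1.18, SE 0.14, edgeR adjusted p = 3.15e-08), with all HH9 libraries below the lowest HH8 library. HAPLN1 (-1.30), which links hyaluronan to proteoglycans, CITED4 (-1.24), a coactivator that binds CBP and p300, and TOX2 (-1.22), an HMG-box protein, fell by similar log2 fold changes, with edgeR adjusted p values of at most 1.65e-05. The rule that chose the genes with the largest rises and falls required no overlap between HH9 and HH8. Their full separation thus follows from that choice.

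**Figure D2:**
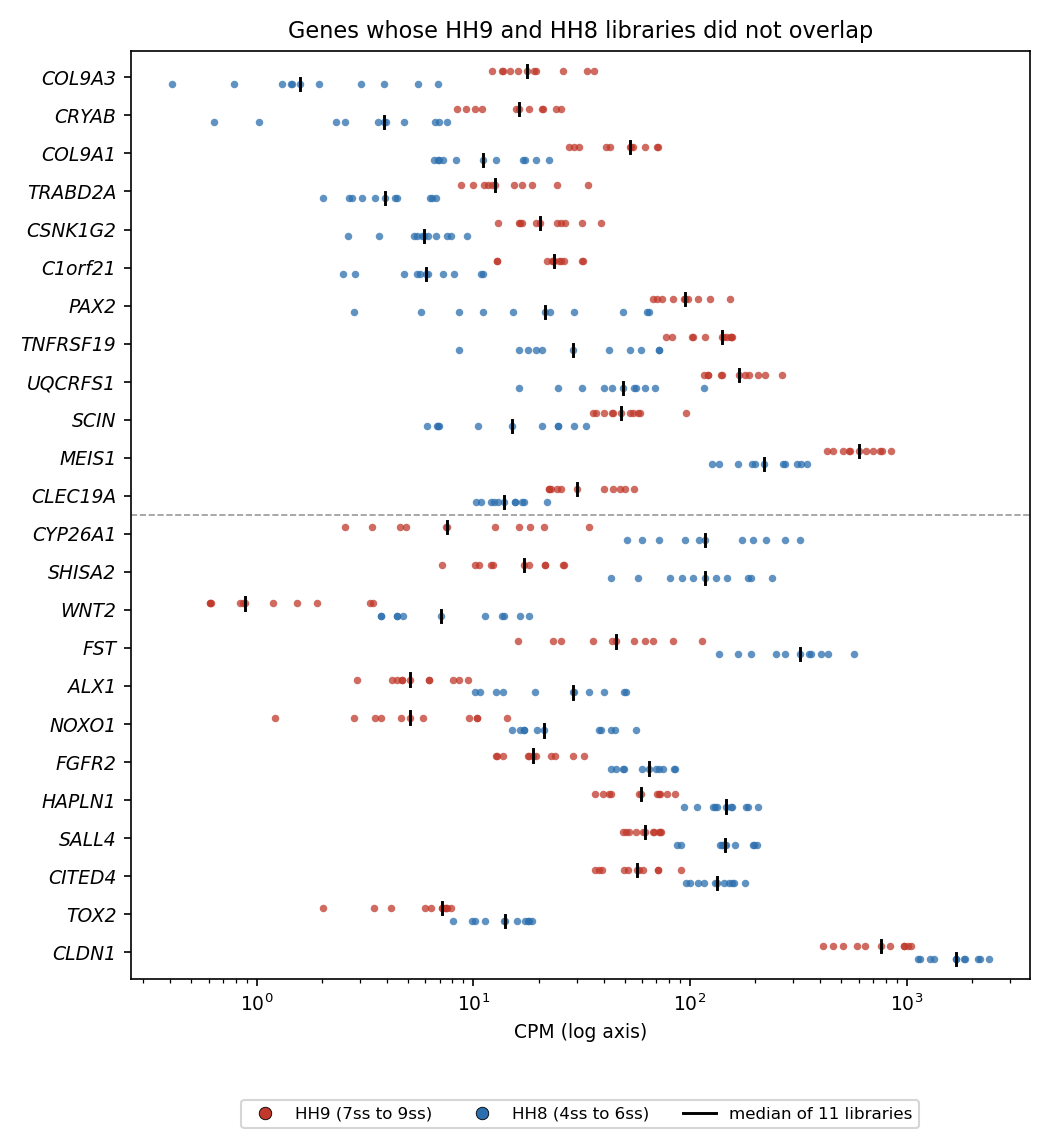
CPM (log axis) of the 12 genes with the largest rise (above the dashed line) and the 12 with the largest fall among genes of at least 5 mean CPM whose groups do not overlap, in each HH9 library (upper row of points) and HH8 library (lower row), with the median of 11 as a bar. In every gene the HH9 points lie wholly to one side of the HH8 points, as for CYP26A1, with 2.55 to 34.2 CPM in HH9 and 51.2 to 322 CPM in HH8.

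Among crest specifiers and migratory crest factors, more genes were called higher than lower, and most were not called. Of 25 tested members, 9 were called higher in HH9 and 2 lower, 44% of the list against 7.07% of all genes tested, and the median log2 fold change was 0.458. SOX10, which drives glial and pigment fates and maintains migratory crest, had 147 to 633 CPM in HH9 libraries (median 278), against 12.4 to 183 CPM in HH8 libraries (median 45.9) (log2 fold change 2.13, SE 0.33, edgeR adjusted p = 7.32e-06). By stage it rose from a mean of 19.2 CPM at 4ss through 133 at 6ss and 267 at 7ss to 421 at 8ss, and was 248 at 9ss. 10 of 11 HH9 libraries lay above every HH8 library, and the exception, 7ss replicate 3, had 147 CPM. NR2F2, a nuclear receptor of head mesenchyme (COUP-TFII), had 185 to 745 CPM in HH9 libraries (median 274), against 66.6 to 230.4 CPM in HH8 libraries (median 111) (log2 fold change 1.70, SE 0.23, edgeR adjusted p = 4.24e-07). Its 9ss values (662, 609, 528 and 745 CPM) stood above all other stages. MEF2C, a MADS-box factor of cranial crest derivatives, had 0.838 to 7.26 CPM in HH9 libraries (median 3.5), against 0 to 4.43 CPM in HH8 libraries (median 0.147) (log2 fold change 2.50, SE 0.55, edgeR adjusted p = 0.00108). Only 2 of the 4 libraries of 4ss had any read on MEF2C, and every HH9 library had at least 0.838 CPM.

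ETS1, a factor specific to cranial crest that acts in delamination, had 117 to 554 CPM in HH9 libraries (median 268), against 36.6 to 321 CPM in HH8 libraries (median 117) (log2 fold change 1.14, SE 0.29, edgeR adjusted p = 0.00475). Its rise came before HH9, with means of 116 CPM at 5ss, 279.8 at 6ss and 324 at 7ss, and its groups overlapped widely. RXRG, a retinoid receptor expressed in migratory crest, had 3.83 to 38.6 CPM in HH9 libraries (median 13.5), against 1.62 to 13.1 CPM in HH8 libraries (median 6.05) (log2 fold change 1.30, edgeR adjusted p = 0.000753). SOX8, a SoxE factor like SOX10, had 2.05 to 6.92 CPM in HH9 libraries (median 4.93), against 1.07 to 3.76 CPM in HH8 libraries (median 1.85) (log2 fold change 1.15, edgeR adjusted p = 0.000868). LHX9 (1.18), ALX4 (2.44) and NR2F1 were also called higher, at low counts. NR2F1 had at most 14 reads in an HH9 library and at most 3 reads in an HH8 library, so no fold is given for it. The call of LHX9 did not hold when 4ss replicate 4 was left out, nor when 5ss replicate 4 was (edgeR adjusted p = 0.027 with all libraries).

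ALX1, described above, and ZEB2 were the 2 members called lower. ZEB2, an EMT repressor of cadherin genes, had 20.3 to 75.1 CPM in HH9 libraries (median 46.9), against 44.4 to 99.7 CPM in HH8 libraries (median 84.8) (log2 fold change -0.75, SE 0.17, edgeR adjusted p = 0.0016), at the edge of the fold threshold, and the call was lost in 11 of 22 fits that left out a library. Several defining crest genes were not called between the groups. SNAI2 had 96.3 to 491 CPM in HH9 libraries (median 337), against 184 to 711 CPM in HH8 libraries (median 265) (log2 fold change -0.33, edgeR adjusted p = 0.398). FOXD3 had 1.9 to 8.54 CPM in HH9 libraries (median 3.51), against 0.584 to 8.32 CPM in HH8 libraries (median 1.76) (log2 fold change 0.72, edgeR adjusted p = 0.218), and TFAP2B had 209.8 to 650.3 CPM in HH9 libraries (median 406), against 113 to 416 CPM in HH8 libraries (median 195) (log2 fold change 0.71, edgeR adjusted p = 0.0714). All 3 had their highest stage mean inside the compared window rather than at its end: 595 CPM at 6ss for SNAI2, 7.72 CPM at 7ss for FOXD3 and 521 CPM at 7ss for TFAP2B, with 143, 2.3 and 299 CPM at 9ss. SOX9 (log2 fold change 0.02) and TWIST1 (-0.30) were not called either.

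**Figure D3:**
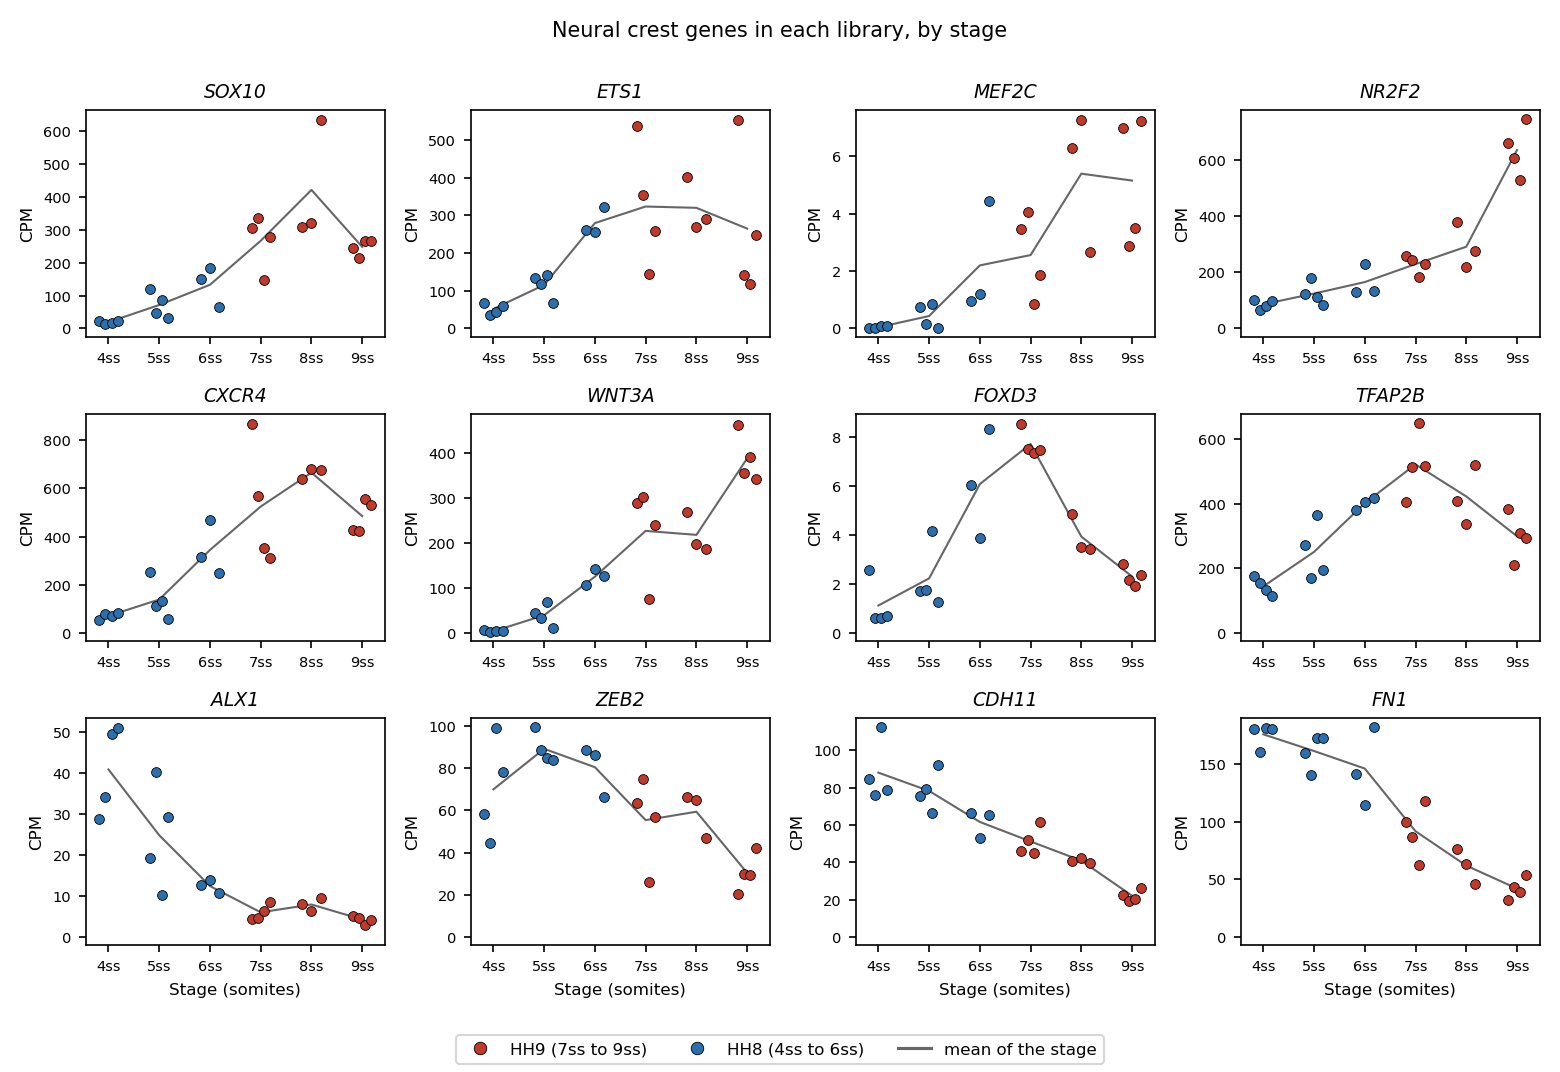
CPM of 12 neural crest and EMT genes in each library (points) with the mean of each stage (line), from 4ss to 9ss. SOX10, NR2F2, CXCR4 and WNT3A lie higher in HH9, ALX1, CDH11 and FN1 lower, and FOXD3 and TFAP2B have their highest means at 7ss (7.72 and 521 CPM).

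Border factors divided. Of 19 tested, 3 were called higher and 2 lower (26.3% against 7.07% of all genes), with a median log2 fold change of 0.211. PAX3, which acts upstream of crest specifiers, had 16.0 to 36.0 CPM in HH9 libraries (median 28.6), against 5.94 to 18.8 CPM in HH8 libraries (median 12.6) (log2 fold change 1.15, SE 0.17, edgeR adjusted p = 2.4e-06). 10 of 11 HH9 libraries lay above every HH8 library, and 7ss replicate 3 with 16.0 CPM was the exception. MYC had 11.4 to 30.6 CPM in HH9 libraries (median 18.9), against 2.67 to 29.7 CPM in HH8 libraries (median 5.09) (log2 fold change 1.07, edgeR adjusted p = 0.00716). ZIC1, a zinc finger factor of the border and dorsal neural tube, had 3.62 to 10.1 CPM in HH9 libraries (median 7.53), against 6.53 to 28.5 CPM in HH8 libraries (median 18.7) (log2 fold change -1.14, edgeR adjusted p = 0.000813), and GATA2, an early non-neural ectoderm factor, had 2.05 to 6.83 CPM in HH9 libraries (median 5.12), against 5.0 to 13.8 CPM in HH8 libraries (median 8.86) (log2 fold change -0.90, edgeR adjusted p = 0.00578). PAX7 (log2 fold change -0.40), MSX1 (-0.29) and TFAP2A (-0.31) were not called, and PAX7 had a median of 34.9 CPM in HH9 and 57.0 CPM in HH8. A gene annotated HES6 was called higher at 1.65 with at most 40 reads in a library, while another gene of that symbol was not called, and reads shared between such copies could not be told apart.

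Receptors and guidance molecules moved in both directions, with 4 of 43 called higher and 4 lower (18.6% against 7.07%). CXCR4, the receptor of the chemoattractant CXCL12 in migratory crest, had 311 to 868 CPM in HH9 libraries (median 558), against 50.9 to 469.9 CPM in HH8 libraries (median 113) (log2 fold change 1.70, SE 0.28, edgeR adjusted p = 2.06e-05). It rose from a mean of 69.8 CPM at 4ss to 666 CPM at 8ss, and 7 of 11 HH9 libraries lay above every HH8 library. Its ligand CXCL12 was not called (log2 fold change -0.66). EDNRB, an endothelin receptor of crest, had 1.17 to 5.62 CPM in HH9 libraries (median 2.47), against 0.584 to 2.67 CPM in HH8 libraries (median 1.53) (log2 fold change 0.85, edgeR adjusted p = 0.00958), a call lost without 8ss replicate 1. EFNA2 (0.94), an ephrin, and PLXNA4 (0.76), a semaphorin coreceptor, were also called higher, the second only in 11 of 22 fits that left out a library. The members called lower were ERBB4 (-1.45), a neuregulin receptor, KIT (-1.06), the receptor of pigment cell and germ cell precursors, EFNB2 (-0.89) and EPHA7 (-0.78), the last not in 5 of 22 such fits. Neuropilins, Robo receptors and most Eph receptors were among the 35 not called.

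Of 32 cadherin and junction genes, 4 were called, all lower (12.5% against 7.07%), with a median log2 fold change of -0.382 for the list. CDH11, a mesenchymal cadherin of migrating crest, had 19.4 to 61.8 CPM in HH9 libraries (median 40.8), against 53.0 to 112 CPM in HH8 libraries (median 75.9) (log2 fold change -1.03, SE 0.15, edgeR adjusted p = 3.19e-06). 10 of 11 HH9 libraries lay below every HH8 library. CDH6, the cadherin of premigratory crest named cadherin-6B in chick, had 1.98 to 14.0 CPM in HH9 libraries (median 5.93), against 6.68 to 31.4 CPM in HH8 libraries (median 12.7) (log2 fold change -1.29, SE 0.27, edgeR adjusted p = 0.000562), and its stage mean was highest at 5ss (23.3 CPM). CDH8 had 0 to 0.907 CPM in HH9 libraries (median 0.263), against 0.301 to 2.22 CPM in HH8 libraries (median 1.27) (log2 fold change -2.47, edgeR adjusted p = 2.42e-05), and CLDN1 was described above. The main epithelial and neural cadherins were not called: CDH1 (E-cadherin) had a log2 fold change of -0.54 and CDH2 (N-cadherin) of 0.23, with medians of 54.1 CPM in HH9 and 44.4 CPM in HH8 for CDH2. CDH7, a cadherin of migratory crest, stood at -0.09.

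Of 36 proteases and EMT effectors, 4 were called higher and 2 lower (16.7% against 7.07%). MMP2, a gelatinase that crest cells use in EMT and migration, had 5.55 to 11.9 CPM in HH9 libraries (median 9.54), against 1.06 to 8.38 CPM in HH8 libraries (median 4.11) (log2 fold change 1.09, edgeR adjusted p = 0.00184). HAS2, which makes hyaluronan, had 9.54 to 32.7 CPM in HH9 libraries (median 19.9), against 3.87 to 14.2 CPM in HH8 libraries (median 8.48) (log2 fold change 1.13, edgeR adjusted p = 0.000342). ADAMTS15 (1.47) and ADAM33 (1.26), both metalloproteases, were called higher at medians of 1.66 and 1.70 CPM in HH9. ITGA6, a laminin-binding integrin, had 5.69 to 17.7 CPM in HH9 libraries (median 10.7), against 14.2 to 53.5 CPM in HH8 libraries (median 31.7) (log2 fold change -1.45, SE 0.19, edgeR adjusted p = 4.42e-07). RND3, an atypical small GTPase that loosens actin fibers, had 38.1 to 81.5 CPM in HH9 libraries (median 70.4), against 92.0 to 176 CPM in HH8 libraries (median 114) (log2 fold change -0.90, edgeR adjusted p = 7.82e-07), with no overlap between the groups.

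Matrix genes moved in both directions. Of 50 tested, 7 were called higher and 4 lower (22% against 7.07%), and the median log2 fold change was 0.0551. FN1 (fibronectin), a substrate of crest migration, had 31.8 to 118 CPM in HH9 libraries (median 62.2), against 115 to 182 CPM in HH8 libraries (median 172) (log2 fold change -1.31, SE 0.16, edgeR adjusted p = 5.98e-08). Its stage means were 176, 161, 146, 91.7, 61.9 and 41.9 CPM from 4ss to 9ss, a decline at every step. HAPLN1, COL14A1 (-0.89) and COL6A1 (-0.75) were also called lower, COL6A1 not in 8 of 22 fits that left out a library. On the other side stood COL9A3 and COL9A1, COL2A1, the main cartilage collagen, with 14.9 to 33.1 CPM in HH9 libraries (median 22.2), against 8.27 to 16.6 CPM in HH8 libraries (median 11.9) (log2 fold change 0.89, edgeR adjusted p = 1.28e-05), and DCN (decorin) at 2.20, NID2 (nidogen) at 1.15, HSPG2 (perlecan) at 0.79, a call lost in 5 such fits, and ACAN (aggrecan) at 1.98. MATN1, a cartilage matrix protein outside this list, had 41.5 to 98.5 CPM in HH9 libraries (median 50.0), against 7.71 to 42.4 CPM in HH8 libraries (median 17.6) (log2 fold change 1.50, SE 0.22, edgeR adjusted p = 2e-06). SOX9, which activates cartilage collagen genes, was not called, and of 24 tested cartilage and mesenchyme genes 6 were called higher and 2 lower (33.3%), 5 of the 6 being matrix genes and the other ALX4. COL1A1, COL1A2 and COL3A1 were not called (log2 fold changes 0.08, -0.43 and 0.02).

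Wnt genes held the most calls of the signaling lists, with 13 of 47 higher and 6 lower (40.4% against 7.07%) and a median log2 fold change of 0.251. The ligand WNT2, described above as lower in HH9, is not on this list and is not in its counts. Of the 13, 8 were ligands. WNT3A, a ligand of the dorsal midline, had 74.6 to 462 CPM in HH9 libraries (median 288), against 0.796 to 141 CPM in HH8 libraries (median 32.0) (log2 fold change 2.52, SE 0.50, edgeR adjusted p = 0.000308). Its 4ss libraries held 5.45, 0.796, 2.67 and 2.93 CPM and its 9ss libraries 462, 354, 391 and 340.5 CPM, and only 7ss replicate 3, with 74.6 CPM, fell inside the HH8 range. WNT2B had 1.12 to 22.3 CPM in HH9 libraries (median 4.87), against 0.225 to 1.53 CPM in HH8 libraries (median 0.475) (log2 fold change 3.35, SE 0.43, edgeR adjusted p = 2.2e-07), with the highest values at 9ss (13.7, 8.48, 10.5 and 22.3 CPM). WNT4 had 60.5 to 278 CPM in HH9 libraries (median 158), against 16.1 to 218 CPM in HH8 libraries (median 38.2) (log2 fold change 1.12, edgeR adjusted p = 0.0186), with wide overlap. WNT5B (1.55), WNT8B (1.35), WNT7B (2.37) and WNT5A (0.86) were also called higher, the last not without 9ss replicate 2. WNT7A was called as well, but its highest HH8 count was 1 read and its HH9 values ran from 0 to 2.84 CPM, the highest in 8ss replicate 3. WNT1, the other Wnt ligand of the dorsal midline, had a median of 23.5 CPM in HH9 and 12.8 CPM in HH8 and was not called (log2 fold change 0.78, edgeR adjusted p = 0.117).

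Targets, effectors and feedback genes of canonical Wnt signaling were called in part. AXIN2, a direct target and feedback inhibitor, had 3.68 to 16.5 CPM in HH9 libraries (median 8.93), against 2.92 to 7.53 CPM in HH8 libraries (median 4.73) (log2 fold change 0.96, edgeR adjusted p = 0.000665). LEF1 (0.81), a nuclear effector, NKD1 (0.77) and DACT2 (0.86), both inhibitors acting on Dishevelled, were called higher, and LEF1 and NKD1 each lost the call in at least 4 fits that left out a library. Of the same list SP5 (0.13), a target, NOTUM (0.53) and DKK1 (0.66), both feedback inhibitors, and TCF7 (-0.09), an effector, were not called. Secreted antagonists divided. SFRP1 had 6.47 to 16.7 CPM in HH9 libraries (median 12.7), against 14.4 to 64.5 CPM in HH8 libraries (median 33.5) (log2 fold change -1.66, SE 0.21, edgeR adjusted p = 1.76e-07) and SFRP2 had 133 to 459 CPM in HH9 libraries (median 195), against 318 to 856 CPM in HH8 libraries (median 425) (log2 fold change -1.21, SE 0.16, edgeR adjusted p = 4.99e-07). FRZB (-0.78) was also lower, though not in 8 of 22 fits that left out a library, whereas WIF1, another secreted inhibitor, had 0.14 to 6.34 CPM in HH9 libraries (median 1.42), against 0 to 0.904 CPM in HH8 libraries (median 0.0861) (log2 fold change 3.75, SE 0.56, edgeR adjusted p = 3.91e-06). FZD8 (-1.17), a receptor, TCF7L2 (-0.90), an effector, and WNT8A (-2.25), not called without 5ss replicate 1, complete the members called lower.

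In the FGF list 5 of 25 were called higher and 3 lower (32% against 7.07%). SPRY2, a feedback inhibitor induced by FGF signaling, had 1353 to 5287 CPM in HH9 libraries (median 2222), against 332 to 1501 CPM in HH8 libraries (median 627) (log2 fold change 1.69, SE 0.26, edgeR adjusted p = 5.27e-06). 10 of 11 HH9 libraries lay above every HH8 library. SPRY1 (1.68) and DUSP6 (0.80) are inhibitors of the same kind and were called higher, DUSP6 in only 7 of 22 fits that left out a library. FGF8, the ligand of the midbrain and hindbrain boundary, had 2.67 to 8.7 CPM in HH9 libraries (median 5.67), against 0.849 to 5.48 CPM in HH8 libraries (median 3.32) (log2 fold change 1.09, edgeR adjusted p = 0.00394), and FGF18 had 0.82 to 17.0 CPM in HH9 libraries (median 5.02), against 1.09 to 4.93 CPM in HH8 libraries (median 2.37) (log2 fold change 1.46, edgeR adjusted p = 0.000616). The receptors went the other way: FGFR2, described above, and FGFR3, with 327 to 1079.5 CPM in HH9 libraries (median 641), against 514 to 2121 CPM in HH8 libraries (median 1252) (log2 fold change -0.98, edgeR adjusted p = 0.00699), fell, and FGFR1 was not called (0.03). The ligand FGF19 was called lower (-1.67), though not without 4ss replicate 4.

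In the Notch pathway 4 of 18 were called, all higher (22.2% against 7.07%). HEYL, a transcriptional target, had 2.3 to 10.6 CPM in HH9 libraries (median 5.16), against 0.617 to 3.22 CPM in HH8 libraries (median 1.46) (log2 fold change 1.98, SE 0.32, edgeR adjusted p = 1.88e-05). The targets HES5 (1.51) and HEY2 (0.98) and the ligand JAG2 (1.18) were called too, HES5 not without 9ss replicate 3 and HEY2 not without 7ss replicate 3. Notch receptors NOTCH1 (-0.06) and NOTCH2 (-0.13) were not called. The summed level of the Notch list had a median of 801 CPM in HH9 and 838 CPM in HH8. These pooled medians hide changes between stages. The stage medians were 866.9, 862.5, 727.3, 537.3, 801.5 and 1150 CPM from 4ss to 9ss, lowest at 7ss and highest at 9ss. At 7ss against HH8, HEYL was called higher (1.29) and HES1 lower (-1.24). Each of these calls was lost in 2 of 22 fits that left out a library. Of 30 BMP and TGF-beta genes, INHBB (1.93) and NOG (1.02), a BMP antagonist, were called higher and FST and BMP5 (-1.06) lower (13.3% in all), while BMP4 (-0.31) and BMP7 (0.32) were not called. In the retinoic acid list 3 of 15 were called, all lower (20%). Besides CYP26A1 these were CYP26C1 (-0.96), a related degrading enzyme, and DHRS3 (-0.90), a retinaldehyde reductase whose call was lost without 4ss replicate 4 and without 9ss replicate 1. The synthesis genes ALDH1A1, ALDH1A2 and ALDH1A3 were not called (log2 fold changes -1.04, -0.53 and -0.61). RDH10, also a synthesis gene, was not called either, and 7 of 11 HH9 libraries lay above its HH8 median. None of 11 hedgehog genes was called by edgeR (against 7.07% of all genes) or by DESeq2, with log2 fold changes between -0.30 and 0.54. At an unadjusted p below 0.05 in edgeR's test stood 3 of the 11 (2 higher and 1 lower), a share near the 5283 of all 18525 genes.

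**Figure D4:**
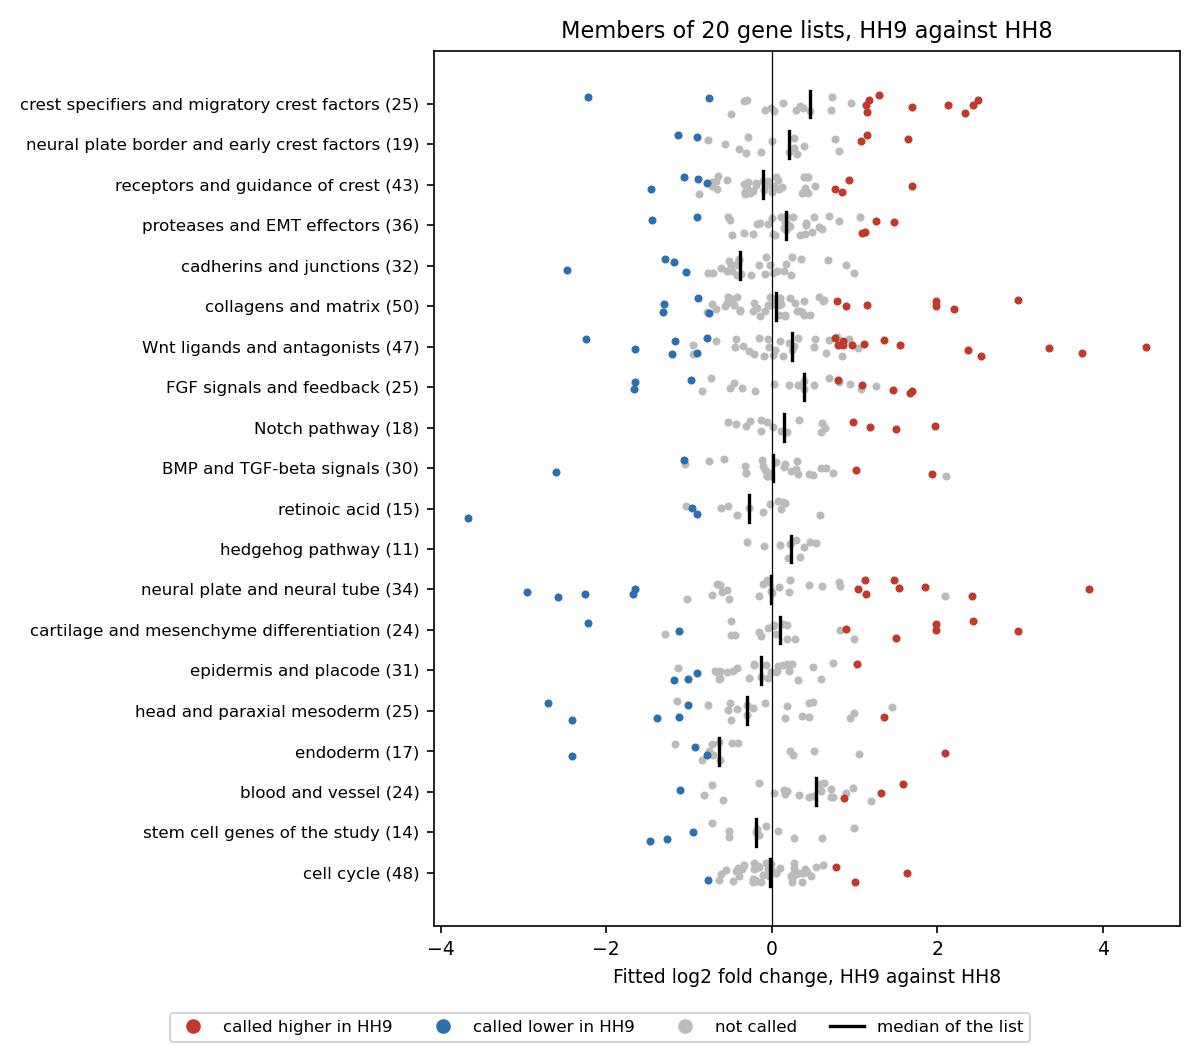
Fitted log2 fold change of HH9 against HH8 for each tested member of 20 gene lists (number of members in brackets), with called members in color and the median of each list as a bar. Called members lie on both sides in most lists, all on the right in the Notch list and all on the left in the cadherin, retinoic acid and stem cell lists.

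Regional genes of the neural tube changed in both directions. Of 34 neural plate and neural tube genes, 8 were called higher and 5 lower (38.2% against 7.07%), and the median log2 fold change was -0.00342. The homeobox genes EN1 and EN2 mark the midbrain and anterior hindbrain. EN1 had 80.0 to 331 CPM in HH9 libraries (median 163), against 13.5 to 189 CPM in HH8 libraries (median 31.7) (log2 fold change 1.54, edgeR adjusted p = 0.00171), and EN2 had 0.959 to 32.1 CPM in HH9 libraries (median 8.79), against 0.252 to 4.92 CPM in HH8 libraries (median 2.2) (log2 fold change 2.42, SE 0.40, edgeR adjusted p = 2.41e-05). PAX5, which acts with PAX2 at the boundary, had 0.0465 to 13.2 CPM in HH9 libraries (median 3.39), against 0 to 1.06 CPM in HH8 libraries (median 0.121) (log2 fold change 3.83, SE 0.68, edgeR adjusted p = 7.18e-05). Only 8ss and 9ss libraries exceeded the HH8 range of PAX5, and 8ss replicate 2 (0.454 CPM) did not. SOX3 (1.14), a neural progenitor factor, IRX1 (1.05), NKX6-2 (1.13) and BARHL1 (1.48) were also called higher. BARHL1 stayed under 1 CPM in all 22 libraries and was not called in 7 of 22 fits that left out a library. Of 20 genes of caudal identity, Hox and Cdx genes among them, 19 were not called.

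The members called lower included forebrain and anterior neural plate factors. SIX3, a forebrain and eye field factor, had 0.34 to 1.53 CPM in HH9 libraries (median 0.865), against 3.31 to 10.7 CPM in HH8 libraries (median 4.48) (log2 fold change -2.58, SE 0.24, edgeR adjusted p = 9.3e-11), with no overlap. HESX1, an anterior neural plate repressor, had 3.47 to 9.82 CPM in HH9 libraries (median 6.44), against 5.71 to 52.4 CPM in HH8 libraries (median 38.2) (log2 fold change -2.25, SE 0.27, edgeR adjusted p = 6.36e-08). Its 4ss mean of 47.1 CPM had already declined to 9.54 CPM at 6ss, within the HH9 range. FEZF2 (-2.96) and LHX2 (-1.67), both forebrain factors, were called lower at under 3 CPM in every library. OLIG2 (-1.65) was called lower as well, though not without 5ss replicate 2. OTX2, expressed in forebrain and midbrain, had 15.1 to 42.5 CPM in HH9 libraries (median 24.4), against 23.7 to 58.2 CPM in HH8 libraries (median 33.6) and was not called (log2 fold change -0.63, edgeR adjusted p = 0.0142).

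The list of pluripotency and stem cell genes holds those that the study showed for these same libraries, and its counts are given as a description. Of its 14 genes, 3 were called, all lower (21.4% against 7.07%), with a median log2 fold change of -0.186. NANOG, a homeobox factor of pluripotent cells, had 0.848 to 3.11 CPM in HH9 libraries (median 1.45), against 1.56 to 7.19 CPM in HH8 libraries (median 5.7) (log2 fold change -1.47, SE 0.29, edgeR adjusted p = 0.000356). Its 6ss libraries (1.64, 1.56 and 1.64 CPM) already lay within the HH9 range. SALL1 had 191 to 525 CPM in HH9 libraries (median 274), against 259 to 1221 CPM in HH8 libraries (median 635) (log2 fold change -0.95, edgeR adjusted p = 0.0046), and SALL4 was described above. The chick Oct4 homolog, annotated Pou5f3, had 2.88 to 6.28 CPM in HH9 libraries (median 3.8), against 3.26 to 7.11 CPM in HH8 libraries (median 4.51) and was not called (log2 fold change -0.18). LIN28A, an RNA-binding protein of early cells, had 348 to 609 CPM in HH9 libraries (median 456), against 439 to 647 CPM in HH8 libraries (median 499) (log2 fold change -0.20). KLF4 stood at -0.16, but it stayed under 1 CPM in all 22 libraries. SOX2 (-0.72) and MYCN (0.21, of the border list) were not called. A list of 29 chromatin and RNA regulators of early cells overlaps the 14. Of the 29, 6 were called, all lower (20.7%), namely SALL4 and SALL1, already counted above, and PRDM1 (-1.34), KLF5 (-0.96), GDF3 (-0.89) and the demethylating enzyme TET1 (-0.87). DNMT1, DNMT3A, DNMT3B and EZH2 were not called.

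The dissected pieces could hold other cells, and marker lists for these were followed in the same libraries. Of 31 epidermis and placode genes, KRT14 was called higher and 3 lower, among them CLDN1 and GATA2 (12.9% against 7.07%), and the call of KRT14 was lost in 14 of 22 fits that left out a library. The summed level of the list was 1020.3 to 1591 CPM in HH9 (median 1306), against 1734 to 3279 CPM in HH8 (median 2466), without overlap, and CLDN1 made up most of the difference. Of 25 head and paraxial mesoderm genes, CYP1B1 was called higher and 5 lower, among them MESP1, CER1, GSC and FOXC2 (24%). Without some library the call was lost for FOXC2 (11 of 22 fits) and for CER1 (without 4ss replicate 4). Their summed level was 37.5 to 148 CPM in HH9 (median 70.5) and 50.8 to 178 CPM in HH8 (median 102), and 12 of the 25, among them TBX6, MSGN1, TCF15 and MEOX2, stayed under 1 CPM in all 22 libraries. Of 24 blood and vessel genes, CDH5 (VE-cadherin, 1.59), ERG (1.32) and EGFL7 (0.87) were called higher and FLT4 (-1.11) lower (16.7%). The summed level was 44.1 to 140.4 CPM in HH9 (median 82.0) and 41.6 to 115 CPM in HH8 (median 56.2). CDH5 itself had 0.23 to 3.63 CPM in HH9 libraries (median 1.22), against 0.0861 to 0.882 CPM in HH8 libraries (median 0.453). The part of these cells in the changes of the crest, Wnt and matrix genes was not tested.

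Of 17 endoderm genes, RBP4 was called higher and CER1, FOXA1 and FRZB lower (23.5% against 7.07%). Each of these calls was lost without some library, RBP4 without 9ss replicate 4, CER1 without 4ss replicate 4, FOXA1 without 6ss replicate 1 and FRZB in 8 of 22 fits. Their summed level was 94.9 to 762 CPM in HH9 (median 166) and 157 to 327 CPM in HH8 (median 223). The highest value was 8ss replicate 2, in which TTR (transthyretin) stood at 502 CPM and APOA1 at 185 CPM, against 31.5, 25.4, 38.7 and 14.8 CPM of TTR in the 7ss libraries and 32.0, 2.4, 25.7 and 25.1 CPM in the 9ss libraries. Neither gene was called, and without that library 1341 genes were called. Of 18 heart genes MYL3 (-1.34) and MYH7 (-0.83) were called lower (11.1%), MYH7 not without 4ss replicate 4, and of 13 notochord and floor plate genes NOG and NKX6-2 higher (15.4%). Of 25 genes of early neuronal differentiation 1 was called (4%), the HES6 copy named above, while NEUROG1, NEUROD1 and NEUROD4 stayed under 1 CPM in all 22 libraries. Among 15 glia and pigment genes KIT was called lower, and MLANA was called higher from at most 9 reads in a library (13.3% in all), though not without 8ss replicate 1 or 9ss replicate 4. MITF (-0.08), a regulator of pigment cells, was not called. None of 8 genes of late differentiated tissues was called by edgeR (against 7.07% of all genes) or by DESeq2. At an unadjusted p below 0.05 in edgeR's test stood 2 of the 8, both lower, a share near the 5283 of all 18525 genes.

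The shares called among cell cycle and metabolic genes were near that of all genes. Of 48 cell cycle genes, E2F1 (0.77), CDK2 (1.01) and CDKN1A (1.63) were called higher and GADD45A (-0.77) lower (8.33%, against 7.07% of all genes), and the median log2 fold change was -0.0168. At an unadjusted p below 0.05 in edgeR's test stood 12 higher and 13 lower of the 48, a larger share than the 5283 of all 18525 genes. The calls of E2F1 and GADD45A were lost in 7 and 5 of 22 fits that left out a library. CDKN1A, an inhibitor of cyclin-dependent kinases, had 0.419 to 20.1 CPM in HH9 libraries (median 3.06), against 0.567 to 2.92 CPM in HH8 libraries (median 1.81), and its call was lost without 9ss replicate 2. Of 30 glycolysis and hypoxia genes, HK2 (0.80), a hexokinase, and CA12, a membrane carbonic anhydrase, were called higher (6.67%), HK2 not in 5 of 22 such fits. CA12 had 6.14 to 31.4 CPM in HH9 libraries (median 17.2), against 0 to 7.78 CPM in HH8 libraries (median 0.765) (log2 fold change 3.03, SE 0.49, edgeR adjusted p = 1.56e-05), and its 4ss libraries held 0.765, 0.371, 0 and 0 CPM. Of 21 stress and immediate early genes, DDIT4 (2.07), EGR1 (1.76), CHAC1 (1.76) and DUSP1 (0.98) were called higher and ATF3 (-1.27) lower (23.8%). Such genes also respond to the handling of tissue, and their part in other changes was not tested.

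The 7ss libraries, which share their tissue label with HH8, were also tested alone. Against HH8, 621 genes (3.35%) were called at 7ss, 338 higher and 283 lower, and without 7ss replicate 3 the count was 375. Of the 1309 genes called between HH9 and HH8, 447 were called in the same direction at 7ss and none in the other. SOX10 (log2 fold change 2.23, edgeR adjusted p = 1.01e-06), CXCR4 (log2 fold change 1.82, edgeR adjusted p = 3.33e-06), WNT3A (log2 fold change 3.21, edgeR adjusted p = 1.44e-07) and ETS1 (log2 fold change 1.45, edgeR adjusted p = 0.00104) were among those higher at 7ss, and CYP26A1 (log2 fold change -2.48, edgeR adjusted p = 8.58e-06), FST (log2 fold change -1.79, edgeR adjusted p = 7.56e-06) and ALX1 (log2 fold change -1.95, edgeR adjusted p = 7.56e-06) among those lower. FOXD3 and TFAP2B, not called for HH9 as a whole, were called higher at 7ss. FOXD3 held 8.54, 7.51, 7.35 and 7.48 CPM in the 7ss libraries, against 0.584 to 8.32 CPM (median 1.76) in HH8, where only 6ss replicate 3 reached the 7ss range (log2 fold change 1.64, edgeR adjusted p = 0.00442). TFAP2B held 406, 513, 650.3 and 516 CPM in the 7ss libraries, against 113 to 416 CPM (median 195) in HH8 (log2 fold change 1.10, edgeR adjusted p = 0.00195). Both calls held in every fit that left out a library.

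Some factors of mesenchyme and EMT, picked after their values were seen, were called lower at 7ss than in HH8. TWIST1, a basic helix-loop-helix factor of cranial mesenchyme, had 2.75, 10.6, 2.0 and 5.25 CPM in the 7ss libraries, against 7.95 to 41.9 CPM (median 24.7) in HH8 (log2 fold change -2.11, edgeR adjusted p = 0.00952). The call was lost without 7ss replicate 3, as were those of TWIST2 and PRRX1. TWIST2 (log2 fold change -1.49, edgeR adjusted p = 0.0147), PRRX1 (log2 fold change -1.35, edgeR adjusted p = 0.00963) and CXCL12 (log2 fold change -1.27, edgeR adjusted p = 0.000359) were also called lower at 7ss. SNAI1 had 2.6, 8.53, 2.05 and 6.79 CPM in the 7ss libraries, against 3.96 to 19.7 CPM (median 11.2) in HH8 (log2 fold change -0.98, edgeR adjusted p = 0.046), a call lost in 9 of 22 fits that left out a library. Markers of head mesoderm moved with these genes: their summed level had stage medians of 140.2, 90.4, 67.05, 49.8, 70.5 and 99.98 CPM from 4ss to 9ss, and 6 of 25 were called lower at 7ss, against 1.53% of all genes. TWIST1 and PRRX1 are themselves on that list, and its part in the change was not tested.

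At 8ss and 9ss together, 1363 genes were called against HH8 (7.36%), 775 higher (4.18%) and 588 lower (3.17%). Between 8ss and 9ss together and 7ss, 123 genes (0.664%) were called, 68 higher and 55 lower, and the count was 54 without 8ss replicate 3 and 207 without 8ss replicate 1. Of the 123, 56 were also called between HH9 and HH8, and 23 were higher here and called lower at 7ss against HH8. Both comparisons use the same 7ss libraries, so low values in these count toward both calls. SNAI1, a Snail repressor of EMT, had 22.4, 16.7 and 21.6 CPM in the 8ss libraries and 20.5, 51.3, 41.7 and 47.7 CPM in the 9ss libraries, against 2.6, 8.53, 2.05 and 6.79 CPM in the 7ss libraries (log2 fold change 2.51, edgeR adjusted p = 4.78e-05). SNAI2, its paralog, had 352, 343 and 252 CPM in the 8ss libraries and 99.1, 96.3, 178 and 199 CPM in the 9ss libraries, against 479, 491, 337 and 422 CPM in the 7ss libraries (log2 fold change -1.02, edgeR adjusted p = 0.007). The paralogs thus changed in opposite directions, with all 7 later libraries above every 7ss library for SNAI1 and 5 of 7 below for SNAI2. Both calls held in every fit that left out a library, whereas that of TWIST1 (log2 fold change 2.41, edgeR adjusted p = 0.0188) was lost without 7ss replicate 1, 3 or 4.

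Further genes higher at 8ss and 9ss were TAL1 (log2 fold change 1.64, edgeR adjusted p = 0.007), a blood and vessel progenitor factor, FLI1 (log2 fold change 1.55, edgeR adjusted p = 0.0457) and CD34 (log2 fold change 2.40, edgeR adjusted p = 0.0184), which mark endothelium, LPAR1 (log2 fold change 1.17, edgeR adjusted p = 0.00202), a lysophosphatidic acid receptor, and the boundary gene PAX5 (log2 fold change 3.81, edgeR adjusted p = 0.024). The blood and vessel markers had summed stage medians of 57.2 CPM at 7ss, 82.0 CPM at 8ss and 134 CPM at 9ss, and 3 of 24 were called higher, against 0.367% of all genes. Genes lower at 8ss and 9ss included DRAXIN, a secreted Wnt antagonist and axon guidance protein that regulates crest EMT, with 372, 393 and 374 CPM in the 8ss libraries and 199.8, 148, 249.5 and 199 CPM in the 9ss libraries, against 572, 561, 879.5 and 689 CPM in the 7ss libraries (log2 fold change -1.30, edgeR adjusted p = 0.000255). CYP26A1 (log2 fold change -1.87, edgeR adjusted p = 0.000991), FST (log2 fold change -1.21, edgeR adjusted p = 0.0051) and BMP5 (log2 fold change -1.61, edgeR adjusted p = 0.00412) fell too, as did FN1 (log2 fold change -0.85, edgeR adjusted p = 0.0131) and CDH11 (log2 fold change -0.77, edgeR adjusted p = 0.00217), the last pair not without 7ss replicate 4. For FLI1 the call was lost in 10 of 22 fits that left out a library, for PAX5 in 4 and for CD34 without 7ss replicate 1. As the dissection changed at the same step, these differences cannot be told apart from a difference in the tissue taken.

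**Figure D5:**
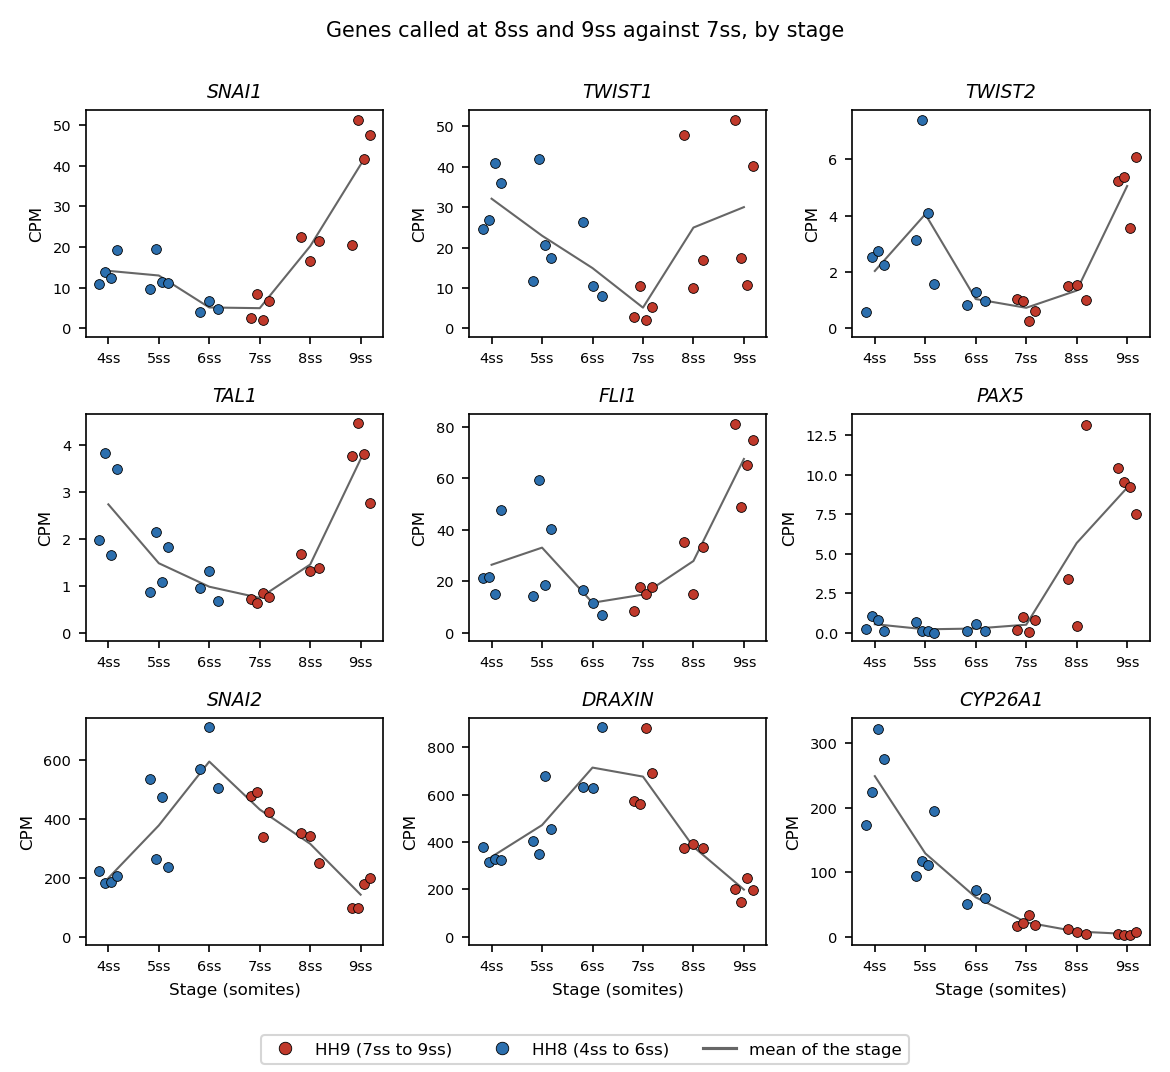
CPM of 9 genes called between 8ss with 9ss and 7ss, in each library (points) with the mean of each stage (line). SNAI1, TWIST1, TWIST2 and TAL1 are at their lowest mean at 7ss and higher at 9ss, while SNAI2, DRAXIN and CYP26A1 decline from 7ss on.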

How the data were processed

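Bulk RNA was sequenced from midbrain-level border and crest tissue, with a kit that does not mark strand. The authors mapped reads with STAR (version 2.7.2a and the build GRCg6a in the submitters' processing notes) and deposited whole-number counts of reads per gene for 24356 genes, together with the counts of the 18525 that exceeded 5 reads in any of the 45 libraries and a scaled signal per gene, which equaled CPM after TMM scaling. Symbols came from the files for 12245 of these genes and from a RefSeq table, by gene identifier, for 1157 more. No 2 libraries of a stage were alike within sampling noise (chi-square over degrees of freedom 21.0 to 130.0 in 30 pairs). The highest values were those of 7ss replicate 3 with replicates 1, 2 and 4 of 7ss (130.0, 115 and 121). Pairs among these other 7ss libraries had 32.8 to 47.9. Libraries were pooled on more than 1 sequencing run, and which library was on which run is not given in the sources used here, so run was not used as a term.

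Tests were run in R 4.3.3, with DESeq2 1.42.0, limma 3.58.1 and edgeR 4.0.16. edgeR's quasi-likelihood test was fitted over all 45 libraries, with 6 groups for HH9 against HH8 and with 12 stages for 7ss alone and for 8ss with 9ss, and p-values were adjusted by Benjamini-Hochberg over all genes tested. The test was also run on simulated counts with known changes. These held no trend across stages within a group, and no result here rests on them. Largest steps used log2 of the mean CPM plus 0.1. Named genes are the top 12 by fold change in each direction among called genes that had a symbol, reached a mean of 5 CPM and did not overlap between groups (31 higher and 17 lower met this), and members of 31 lists, in which 76 listed symbols matched no gene. The genes shown by library, beyond these 24, were picked from the lists after their values were seen. Stages, lists and members were chosen with earlier results of these data known. Alternatives were another test, a test against the fold threshold, other size factors and filters, fewer libraries, 12 stages, a replicate block, a term for libraries numbered 4 and each library left out. Leaving out all libraries numbered 4 was added after seeing the data. A few list members are counted but not reported by name here.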

Additional observations from a re-analysis of the deposited data

Results flagged for a closer look

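Within stages of 4 libraries, 18 of 292 sets of values (72 genes and the first component) had a library far from its 3 neighbors, and chance alone gives about 1 in 20. 5ss replicate 4 had 43.4 CPM of NOXO1 (17.2 to 19.6 in the other 5ss libraries) and 56.7 CPM of OTX2 (26.3 to 26.9), both within the range of the 4ss libraries. 7ss replicate 4 was low in FGFR3 at 327 CPM (1016 to 1079.5) and high in NANOG at 3.11 CPM (1.22 to 1.54). 7ss replicate 3 was low in CDH2 at 24.2 CPM (54.1 to 58.7), and 7ss replicate 1 was high in FOXD3 at 8.54 CPM (7.35 to 7.51). In 9ss replicate 1, PAX2 stood at 153 CPM (93.6 to 94.8), CITED4 at 60.5 CPM (36.5 to 39.4) and ERG at 4.90 CPM (3.56 to 3.72). CDH5 had 2.64 CPM in 9ss replicate 3 (1.22 to 1.42), and WNT2 had 0.885 CPM in 9ss replicate 2 (0.606 to 0.613). Among the 4ss libraries, replicate 1 was high in FOXD3 at 2.57 CPM (0.584 to 0.673) and SCIN at 10.5 CPM (6.09 to 6.85), replicate 2 low in FN1 at 160.3 CPM (180.8 to 181.4), replicate 3 high in SALL1 at 1221 CPM (674 to 722) and replicate 4 low in TOX2 at 13.8 CPM (17.9 to 18.6). PAX5 had 0.646 CPM in 5ss replicate 1 (0 to 0.107), and SNAI1 had 19.6 CPM in 5ss replicate 2 (9.78 to 11.4).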

How the results depend on the processing

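The count of genes called between HH9 and HH8 stayed within 1.5 times of 1309 with DESeq2's Wald test (1307, of which 1169 shared), other size factors (1317), other filters (1060 to 1291), only the 22 libraries (1031), 12 stages (1206), a term for libraries numbered 4 (1365) and without all libraries numbered 4 (1108, 974 shared, an alternative chosen after seeing the data). Tested against the fold threshold itself with edgeR's glmTreat, 187 genes were called, 99 higher and 88 lower, with 50 for 7ss against HH8, 295 for 8ss with 9ss against HH8 and 9 for 8ss with 9ss against 7ss. With 7ss as the only HH9 stage, 621 were called (338 higher, 283 lower). The 123 genes called at 8ss with 9ss against 7ss became 313 with DESeq2 and 58 with only the 22 libraries, and the cause was not tested. Leaving out a library gave 1180 to 1435 genes for HH9 against HH8 (561 to 696 higher, 598 to 739 lower), 375 (without 7ss replicate 3) to 677 for 7ss against HH8, 1040.0 to 1515 for 8ss with 9ss against HH8, and 54 (without 8ss replicate 3) to 207 (without 8ss replicate 1) for 8ss with 9ss against 7ss. Of 72 genes followed by library, 44 kept their call, or the lack of one, in all 34 alternatives. SNAI1 and TAL1 changed sign at 7ss alone, to -0.98 and -1.09, and were then called lower. Without a call in either fit, SNAI2 changed sign at 7ss alone (0.28), TWIST1 at 8ss with 9ss alone (0.30) and TAL1 without 9ss replicate 2 (-0.03). At 7ss alone the Wnt list had 7 of 47 genes called higher and 2 lower, and the crest specifiers 7 of 25 higher and 5 lower. The blood and vessel list had 0 of 24 called higher at 7ss and 1 lower, against 7 higher at 8ss with 9ss. Over all genes tested, 1.82% were called higher and 1.53% lower at 7ss, and 4.18% higher at 8ss with 9ss. Without the libraries numbered 4, head mesoderm had 2 genes called lower, against 5 of 25 with all libraries. In that setting 1108 of all genes tested were called, against 1309. Of the 146 listed or named genes called, 30 lost the call without some library, among them DUSP6 in 15 and KRT14 in 14 of 22 fits, FOXC2, ZEB2 and PLXNA4 in 11, COL6A1, FRZB and NKD1 in 8, BARHL1 and E2F1 in 7, and HSPG2, EPHA7, GADD45A and HK2 in 5. The deviations of same-numbered HH9 and HH8 libraries correlated at a median of -0.000819 (-0.322 to 0.344 over 31 pairs). Pairs of different number had a median of 0.0119 (-0.284 to 0.288 over 90 pairs), and 6 of 22 libraries were most like one of their own number. For numbers 1 to 3 the median was -0.0237 over 27 pairs. The 4 pairs of libraries numbered 4 ran from -0.021 (4ss with 9ss) to 0.344 (4ss with 7ss), with 0.187 and 0.144 for 5ss with 7ss and 9ss. The replicate numbers thus showed no general pairing, whereas 3 of the 4 pairs numbered 4 correlated positively, and the cause was not tested. With a replicate block, 1311 genes were called, 1233 of them shared. Depth limits genes of few reads: 364 of the 1309 had a mean under 1 CPM in both groups.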

Other observations

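Outside the lists and the rule for non-overlapping genes, 3 genes with large rises were chosen after their values were seen. SP9, a zinc finger factor of limb ectoderm and ventral forebrain, had 7.35 to 73.0 CPM in HH9 libraries (median 36.1), against 0.189 to 8.74 CPM in HH8 libraries (median 1.15) (log2 fold change 3.87, SE 0.53, edgeR adjusted p = 8.86e-07). BHLHE40, a basic helix-loop-helix repressor tied to the circadian clock and to hypoxia, had 2.93 to 71.3 CPM in HH9 libraries (median 21.5), against 0 to 5.88 CPM in HH8 libraries (median 1.51) (log2 fold change 3.87, SE 0.48, edgeR adjusted p = 1.4e-07). KLHL14, a BTB-Kelch protein, had 4.42 to 57.1 CPM in HH9 libraries (median 23.4), against 0.882 to 9.44 CPM in HH8 libraries (median 2.45) (log2 fold change 2.72, SE 0.39, edgeR adjusted p = 1.81e-06). The stage means of BHLHE40 were 3.66 CPM at 6ss, 6.5 at 7ss, 28.9 at 8ss and 50.3 at 9ss, and those of SP9 were 5.73, 11.6, 53.0 and 47.6 CPM. At 8ss with 9ss against 7ss, BHLHE40 (log2 fold change 2.56, edgeR adjusted p = 0.00869) and KLHL14 (log2 fold change 2.06, edgeR adjusted p = 0.0224) were called, and SP9 (log2 fold change 2.11, edgeR adjusted p = 0.0603) was not.

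Of the 1309 genes called, 363 had no symbol in the files or the reference table and are not described, and 150 rose and 164 fell by more than 2 on the log2 scale. Of the 123 genes called at 8ss with 9ss against 7ss, 67 were not called between HH9 and HH8 as a whole. Of the same 123, 4 genes were lower at 8ss with 9ss and called higher at 7ss against HH8, comparisons that share the 7ss libraries.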
